A study of Sus scrofa with 16 samples.

Results

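The genes described here encode the Wnt ligands, their receptors, the secreted Wnt antagonists and the signalling core, as transcribed in the whole pituitary of Zlotnicka white gilts. Members were taken by symbol from the deposited gene table (WNT, FZD, SFRP, DKK, DVL, AXIN, LRP5, LRP6, LGR4 and the other families of the pathway), with at least 10 counts in 8 or more pigs. This gave 33 genes of the 25880 counted, and all 33 passed the filter on low counts. Pituitaries came from 16 unrelated female pigs, kept under one feeding and housing regime. Of these, 8 had low feed conversion (LFC) and 8 had high feed conversion (HFC), and each library was 1 pig. The labels give 180 days for every pig. The study, however, ended the test at a set body weight, and its HFC gilts of this breed took longer to reach it. The groups may therefore differ in age. The groups carried no treatment or allele and differed in the feed used per unit of gain, so that other traits which go with feed conversion cannot be told apart from it. Because the anterior and the posterior lobe were homogenised together, fewer cells of a type and less RNA per cell cannot be told apart either.

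Wnt proteins are secreted lipid-modified ligands that bind Frizzled receptors together with the co-receptors LRP5 and LRP6. Dishevelled proteins (DVL) then hold back the destruction complex of AXIN, APC and GSK3, so that beta-catenin (CTNNB1) accumulates and switches on genes with TCF and LEF factors. Secreted Frizzled-related proteins (SFRP, with FRZB) and Dickkopf proteins (DKK) act outside the cell on ligands and co-receptors, and ZNRF3 removes Frizzled from the membrane. In the pituitary the pathway is known for its part in the growth of the gland and in its progenitor cells.

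Libraries held 6010629 to 11794256 reads on genes, and members had median counts from 25.5 to 3059 reads per pig. Expression is given as CPM, the usual library-scaled read count with TMM factors, which is not corrected for transcript length, so that levels are compared between pigs and never between genes. Fold changes are from edgeR's quasi-likelihood fit over 13621 genes on all 16 pigs, and a positive log2 fold change is higher in the HFC pigs. The endocrine markers fixed for the tissue were high in each pig (8 of 10 found by symbol, 91611 to 222209 CPM in sum), with GH1, PRL and CGA leading. Before adjustment, edgeR's p was under 0.05 for 2 of these 8 markers, PRL and CGA (25%, against 11.4% of all genes tested). PRL, the prolactin gene, had 30106 ± 13377 CPM in the LFC and 72531 ± 27492 CPM in the HFC pigs (SD, n = 8 each). Its log2 fold change was 1.27 (edgeR unadjusted p = 0.000205, adjusted p = 0.372, DESeq2 adjusted p = 0.00953). CGA, the shared subunit of the glycoprotein hormones, had a log2 fold change of -0.56 (edgeR unadjusted p = 0.0475, adjusted p = 0.433, DESeq2 adjusted p = 0.366). GH1, POU1F1 and LHX3 had log2 fold changes of 0.04, 0.08 and -0.01, and CHGB, SCG2 and PCSK1 had 0.46, 0.43 and -0.15. The part of PRL and CGA in the differences of the Wnt genes was not tested. The glial markers GFAP, AQP4 and MBP summed to between 905 and 4512 CPM in LFC replicates 1, 5 and 7 and HFC replicate 6, and to at most 240.2 CPM in the other 12 pigs. A further measure differed between libraries, the slope of log2(CPM + 1) on the log10 length of the gene in the genome over 10890 genes, called the length slope below. Its mean over the LFC pigs was -0.12 ± 0.15 (SD, n = 8), against -0.01 ± 0.13 (SD, n = 8) over the HFC pigs, with p = 0.125 by the exact permutation test (two-sided). LFC replicates 6 and 4 and HFC replicate 5 had the lowest slopes (-0.34, -0.34 and -0.28), and the other 13 pigs lay between -0.13 and 0.14.

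A gene counted as called if its adjusted p was 0.05 or less and its fold change 1.3 or more. By these limits edgeR's test called 0 of the 33 members, as it called 0.0% of all genes. DESeq2 at the same thresholds called 1 member, SFRP1, against 0.205% of the 14634 genes it gave an adjusted p. The study, which also used DESeq2 at these thresholds, reported many more genes in this breed and listed Wnt signalling among their pathways. The cause of this disagreement was not tested. Nominally, that is with p up to 0.05 before adjustment, 8 members differed between the groups (24.2%), against 11.4% of all genes tested. Of 14 further tested genes of the same families, which carry no such symbol in the deposited comparison and are not members, 0 did. Higher in the HFC pigs were 7 of the 8 members (SFRP1, DVL2, DVL3, APC, ZNRF3, LRP6 and FRZB), where the background in that direction was 7.03%. SFRP4 was higher in the LFC pigs, where the background was 4.41%. With the fold change minimum added, SFRP1, DVL3, APC and SFRP4 remained (12.1% of the members, against 5.81% of all genes, split into 4.05% higher in the HFC and 1.76% higher in the LFC pigs). The count of 8 fell to 5 without LFC replicate 1, where 1552 of 13666 genes were nominally different. It fell to 4 without LFC replicate 7 (2010 of 13686 genes), a share of the members under that of all genes. It was 5 without HFC replicate 1 (1082 of 13674 genes) or HFC replicate 4 (989 of 13676 genes). The count of 4 with the fold change fell to 1 without LFC replicate 4 (565 of 13695 genes), again a share under that of all genes. It fell to 2 without LFC replicate 6 (561 of 13699 genes). With the length slope in the model, 5 members stayed nominally different (15.2%, against 4.77% of all genes) and 1 of these kept the fold change minimum (3.03%, against 1.85%). Without the 3 pigs of lowest slope 8 members were nominally different (24.2%, against 14.4% of all genes), among which LRP5 took the place of FRZB. Among all genes tested, 958 of the 1559 nominally different ones were higher in the HFC pigs, but with scaling by total library size 639 of 1389 were, and the members then gave 7, with 6 in that direction. Over all 33 members the median log2 fold change was 0.14, with 24 higher in the HFC pigs (72.7%, against 47.9% of all genes), while the median over all genes tested was -0.01. With the length slope in the model the median of the members was 0.04, and 21 of the 33 were higher in the HFC pigs (63.6%, against 50.1% of all genes). The study itself names SFRP1, SFRP4, SFRP5, DVL3 and APC among the genes it selected on these samples, so their part in the count is not independent evidence.

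**Figure D1:**
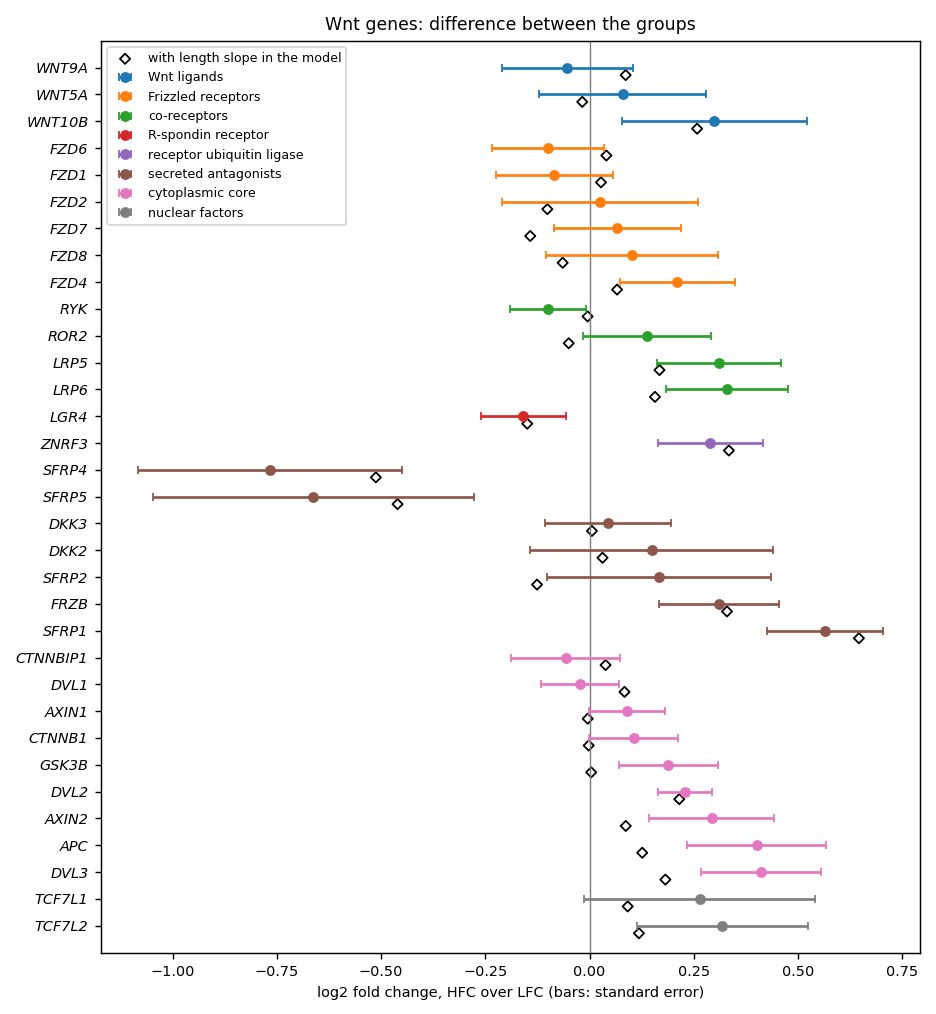
Log2 fold change (x axis, HFC over LFC) of each of the 33 Wnt genes (y axis), coloured by role, from edgeR's fit with its standard error as a bar, and as a hollow diamond the value with the length slope of each pig in the model. SFRP1 (0.56) and SFRP4 (-0.77) lie at the ends, and the diamonds of APC (0.13) and LRP6 (0.16) lie nearer to 0 than their filled points (0.40 and 0.33), while those of SFRP1, DVL2, ZNRF3 and FRZB stay close.

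Secreted antagonists held both ends of the range. SFRP1 (ENSSSCG00000025822, Sscrofa11.1, chromosome 17, 10436411 to 10489755) encodes a secreted protein whose Frizzled-like domain binds Wnt ligands. It had 167, 198 and 287 CPM as the lowest, median and highest value of the LFC pigs and 225, 315 and 401 CPM in the HFC pigs. All HFC pigs exceeded the LFC median, 5 of them were above the highest LFC pig, and the groups overlapped through LFC replicates 4 and 8. The means were 213 ± 46.0 CPM and 315 ± 57.5 CPM (SD, n = 8 each), a 1.48-fold difference (log2 fold change 0.56, SE 0.14). Before adjustment its p was 0.000721 in edgeR, after it 0.372, against an adjusted p of 0.0413 in DESeq2, and the exact two-sided permutation test over the splits of the 16 pigs gave p = 0.00233. Leaving out single pigs moved its log2 fold change between 0.51 and 0.66, and it was 0.65 with the length slope in the model.

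SFRP4 (ENSSSCG00000035299, chromosome 9, 108403906 to 108414409), another secreted Frizzled-related protein, went the opposite way. LFC values ran from 16.7 to 71.2 CPM around a median of 34.7, HFC values from 10.6 to 53.7 CPM around 20.0. Only 1 HFC pig, replicate 5, was above the LFC median, and the groups overlapped over most of their range. On the log2 scale the difference was -0.77 (SE 0.32), so that it was 1.70-fold higher in the LFC pigs (edgeR unadjusted p = 0.0257, adjusted p = 0.417, exact permutation p = 0.0412). It was -1.05 without HFC replicate 5 and -0.56 without LFC replicate 4. With the length slope in the model the log2 fold change was -0.51 (edgeR unadjusted p = 0.0663).

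SFRP5, the closest relative of SFRP1 in the family, was named after its values were seen because it moved beside SFRP4. Its LFC values had a median of 5.99 CPM (3.63 to 18.2) and its HFC values a median of 3.81 CPM (1.99 to 12.4), at a log2 fold change of -0.66 (SE 0.38, edgeR unadjusted p = 0.102), which was -0.39 without LFC replicate 5 and -0.98 without HFC replicate 6. The pigs with the highest SFRP5, LFC replicate 5 and HFC replicate 6, were also those with the highest sums of the 3 glial markers, 4512 and 2702 CPM. The other pigs with high glial sums, LFC replicates 1 and 7, had 5.18 and 5.82 CPM of SFRP5, under the LFC median, while LFC replicates 4 and 2, with low sums, had at least 10.5 CPM, and the part of these cells in SFRP5 was not tested. Its whole span of 5.87 kb lies within that of ZFYVE27, a gene at a log2 fold change of -0.02, and reads counted without strand may belong to either. FRZB (ENSSSCG00000016018, chromosome 15, 88332857 to 88377247), also known as SFRP3, ran from 62.7 to 135 CPM around the median of 98.4 in the LFC pigs and from 87.5 to 145 CPM around 127 in the HFC pigs. In 7 HFC pigs it exceeded the LFC median, yet only 2 exceeded the highest LFC pig (log2 fold change 0.31, SE 0.14, edgeR unadjusted p = 0.0457, adjusted p = 0.433, exact permutation p = 0.0564). Its unadjusted p stayed at or under 0.05 in 16 of the 27 fits made, counting all alternatives and pigs left out.

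DKK3 (ENSSSCG00000013401, chromosome 2, 47385239 to 47444661), a divergent Dickkopf protein, took the most counts of the antagonists. It had 189, 335 and 407 CPM as the lowest, median and highest LFC value and 242, 356 and 417 CPM in the other group, giving a log2 fold change of 0.04 (SE 0.15), smaller than the spread within either group. SFRP2 and DKK2 were also within the spread, with log2 fold changes of 0.17 and 0.15 and standard errors of 0.27 and 0.29. SFRP2, SFRP4, SFRP5 and DKK2 were the most variable of the members: their coefficients of variation were above 40% in both groups, as for 7.06% of all genes tested, against medians over the members of 22.4% in the LFC and 21.2% in the HFC pigs. SFRP4 reached 46.3% and 60.6%, and SFRP5 57.5% and 67.5%. All 4 are antagonists. In each of them the range over the pigs of one group was wider than the distance between the group means, as it also was for SFRP1 and DVL2.

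**Figure D2:**
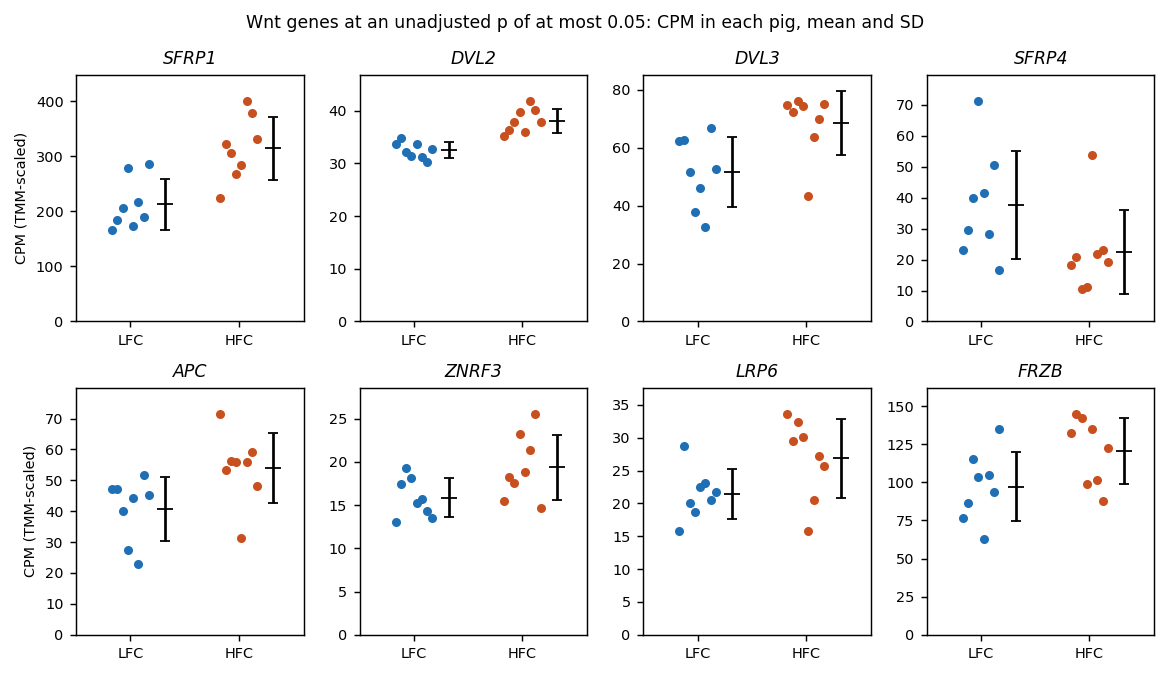
TMM-scaled CPM (y axis, from 0) of the 8 nominally different Wnt genes (unadjusted p up to 0.05) in each LFC pig (blue) and HFC pig (orange), with the mean and SD of each group as a black bar. The groups of DVL2 do not overlap (30.3 to 34.9 against 35.1 to 41.9 CPM), those of the other genes do, and HFC replicate 5 lies low for DVL3 (43.2 CPM) and high for SFRP4 (53.7 CPM).

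Among the Dishevelled genes, which relay the signal from Frizzled, 2 of 3 were nominally different, against 11.4% of all genes tested. Neither was called by edgeR or DESeq2. DVL2 (ENSSSCG00000025689, chromosome 12, 52580978 to 52589999) had 30.3, 32.5 and 34.9 CPM as the lowest, median and highest LFC value, and 35.1, 37.9 and 41.9 CPM in the HFC pigs. Every HFC pig was above every LFC pig, and with TMM scaling DVL2 was the 1 gene of the 13621 tested whose groups did not overlap (0.00734% of genes). RLE scaling left DVL2 without overlap, beside 2 other genes, and upper-quartile scaling beside 5. With total library size alone, however, 3 HFC pigs were below the highest LFC pig, and 5 LFC pigs were above the lowest HFC pig. The difference was small, 32.5 ± 1.52 against 38.1 ± 2.33 CPM (SD, n = 8 each), 1.17-fold, at a log2 fold change of 0.23 and a standard error of 0.06. This fold change is under the minimum of 1.3 for a call. The exact permutation test gave p = 1.55e-04, the smallest value that the splits of 8 and 8 pigs allow, while edgeR, which draws the spread of a gene towards that of other genes, gave p = 0.00228 before adjustment and 0.385 after it (DESeq2 adjusted p = 0.0912). Among 13621 genes, a separation of this probability can come about by chance in single genes, so it does not set DVL2 apart. The spread was also narrow, with a coefficient of variation of 4.66% in the LFC and 6.12% in the HFC pigs. Only 2 of the genes tested, DVL2 included, were this low in both groups, but these limits were DVL2's own values. DVL2 had a median of 279 reads per pig, and the part of counting noise in this spread was not tested. DVL2 shares 1449 bases with ACADVL, a mitochondrial fatty acid dehydrogenase gene, and ACADVL had 101 ± 7.97 CPM and 105 ± 9.05 CPM (SD, n = 8 each), a log2 fold change of 0.05. Across all 27 fits made, the unadjusted p of DVL2 was at most 0.05, and with single pigs left out its log2 fold change ran from 0.21 to 0.26.

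DVL3 (ENSSSCG00000025374, chromosome 13, 122075783 to 122092975) had LFC values from 32.7 to 66.8 CPM with a median of 52.1, and HFC values from 43.2 to 76.1 CPM with a median of 73.2. Of the HFC pigs, 6 were above the highest LFC pig, and replicate 5 lay far below the rest of its group. The log2 fold change was 0.41 (SE 0.14, 1.33-fold, edgeR unadjusted p = 0.0107, adjusted p = 0.413, exact permutation p = 0.0191), and it was 0.18 with the length slope in the model (edgeR unadjusted p = 0.0216). DVL1, the remaining Dishevelled gene, had 117 ± 16.9 CPM in the LFC and 115 ± 9.75 CPM in the HFC pigs (SD, n = 8 each), at a log2 fold change of -0.02 that became 0.08 with the length slope in the model.

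The destruction complex marks beta-catenin for degradation. Its scaffold gene APC (ENSSSCG00000014207, chromosome 2, 116912626 to 117097925) had 22.8, 44.8 and 51.9 CPM as the lowest, median and highest LFC value and 31.2, 55.9 and 71.4 CPM in the HFC pigs. It was above the highest LFC pig in 6 HFC pigs, and the lowest values were those of LFC replicates 6 and 4 and HFC replicate 5, the pigs with the lowest length slopes. The log2 fold change of 0.40 (SE 0.17, 1.32-fold, edgeR unadjusted p = 0.0265, adjusted p = 0.420, exact permutation p = 0.0503) was 0.13 with the length slope in the model (edgeR unadjusted p = 0.140). Left out instead, these 3 pigs gave 0.32 (edgeR unadjusted p = 0.00315). AXIN2, a scaffold and itself a widely used target gene of beta-catenin, and the kinase gene GSK3B had log2 fold changes of 0.29 and 0.19 (SE 0.15 and 0.12, edgeR unadjusted p = 0.0670 and 0.130), and 0.09 and 0.0041 with the length slope in the model. AXIN1 and CTNNBIP1, an inhibitor of beta-catenin, had log2 fold changes of 0.09 and -0.06. CTNNB1 (ENSSSCG00000011274, chromosome 13, 25159603 to 25208313), beta-catenin itself, was at 274, 361 and 415 CPM as the lowest, median and highest LFC value and at 318, 366 and 438 CPM in the HFC pigs. The groups overlapped over most of this range (log2 fold change 0.11, SE 0.11, edgeR unadjusted p = 0.332).

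Among the receptors, 1 of 4 co-receptors and none of 6 Frizzled genes were nominally different, against 11.4% of all genes tested. The difference between these sets was not tested. LRP6 (ENSSSCG00000000625, chromosome 5, 60149026 to 60314764), which binds Wnt together with Frizzled, ran from 15.8 to 28.7 CPM around 21.2 in the LFC pigs and from 15.8 to 33.6 CPM around 28.4 in the HFC pigs. Above the highest LFC pig were 4 HFC pigs, but HFC replicate 5 was level with the lowest LFC pig (log2 fold change 0.33, SE 0.15, edgeR unadjusted p = 0.0354, adjusted p = 0.428, exact permutation p = 0.0716). The value was 0.16 with the length slope in the model. LRP5, the other co-receptor of the canonical pathway, missed the threshold narrowly at a log2 fold change of 0.31 (SE 0.15, edgeR unadjusted p = 0.0513) and 0.17 with the length slope in the model. RYK (ENSSSCG00000011642, chromosome 13, 75287415 to 75366199), a Wnt receptor of the kinase-dead type, ran from 43.4 to 58.0 CPM around 46.7 in the LFC pigs and from 38.2 to 54.4 CPM around 44.4 in the HFC pigs, at a log2 fold change of -0.10 (SE 0.09). ROR2, a receptor for WNT5A, had a log2 fold change of 0.14 (SE 0.15).

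No Frizzled gene was nominally different, and the log2 fold changes of the 6 members ran from -0.10 (FZD6) to 0.21 (FZD4). FZD4 (ENSSSCG00000014920, chromosome 9, 20712717 to 20722403), which also serves as a receptor for norrin in blood vessels, had 34.4, 42.2 and 55.6 CPM as the lowest, median and highest LFC value and 34.0, 45.0 and 70.6 CPM in the HFC pigs. Its 3 highest HFC pigs were above the LFC range and its lowest was under it (SE 0.14, edgeR unadjusted p = 0.143). FZD4 shares 458 bases with TMEM135, a gene at a log2 fold change of 0.13, and reads counted there without strand may belong to either. The endothelial markers PECAM1, CDH5, KDR, VWF and TEK summed to 118 to 178 CPM in the LFC and 95.8 to 277 CPM in the HFC pigs, with the highest sums in HFC replicates 1 and 4, where FZD4 was also high (70.6 and 56.9 CPM), but HFC replicate 2 had 59.5 CPM of FZD4 at a sum of 157 CPM. Of these 5 markers, CDH5 and VWF were nominally higher in the HFC pigs, against 7.03% of all genes tested. Neither of them was with the length slope in the model, and the part of these markers in FZD4 was not tested.

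ZNRF3 (ENSSSCG00000009971, chromosome 14, 46091938 to 46241321), the membrane ubiquitin ligase that clears Frizzled, had 13.0, 15.5 and 19.3 CPM as the lowest, median and highest LFC value and 14.7, 18.5 and 25.5 CPM in the HFC pigs. In 3 HFC pigs it was above the LFC range, and 3 LFC pigs were under the HFC range (log2 fold change 0.29, SE 0.13, edgeR unadjusted p = 0.0333, adjusted p = 0.426, exact permutation p = 0.0402). With the length slope in the model the value was 0.33. LGR4 (ENSSSCG00000013335, chromosome 2, 32871904 to 32979148), a receptor for R-spondins, which protect Frizzled from ZNRF3, ran from 63.2 to 87.0 CPM around 77.7 in the LFC pigs and from 51.1 to 81.0 CPM around 71.4 in the HFC pigs. It had a log2 fold change of -0.16 (SE 0.10, edgeR unadjusted p = 0.140), with 6 HFC pigs below the LFC median.

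Ligands and nuclear factors had few counts. WNT10B (ENSSSCG00000000182, chromosome 5, 14995704 to 15013613), a canonical ligand, had 2.59, 4.38 and 5.32 CPM as the lowest, median and highest LFC value and 3.81, 4.32 and 9.39 CPM in the HFC pigs, where replicates 8 and 2 stood above the rest (log2 fold change 0.30, SE 0.22). WNT9A (ENSSSCG00000024671, chromosome 2, 51102239 to 51128362) ran from 7.96 to 17.8 CPM around 10.8 in the LFC pigs and from 7.58 to 13.8 CPM around 10.8 in the HFC pigs. The change on the log2 scale was -0.05 (SE 0.16), and that of WNT5A, a ligand known for signalling without beta-catenin, was 0.08 (SE 0.20). TCF7L2 (ENSSSCG00000010638, chromosome 14, 123343756 to 123545925), a partner of beta-catenin on DNA, had a median of 4.45 CPM (1.88 to 5.44) in the LFC and 5.47 CPM (3.38 to 6.82) in the HFC pigs, and TCF7L1 reached at most 4.47 CPM in any pig. Their log2 fold changes were 0.32 and 0.26, with standard errors of 0.21 and 0.28, and 0.12 and 0.09 with the length slope in the model.

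**Figure D3:**
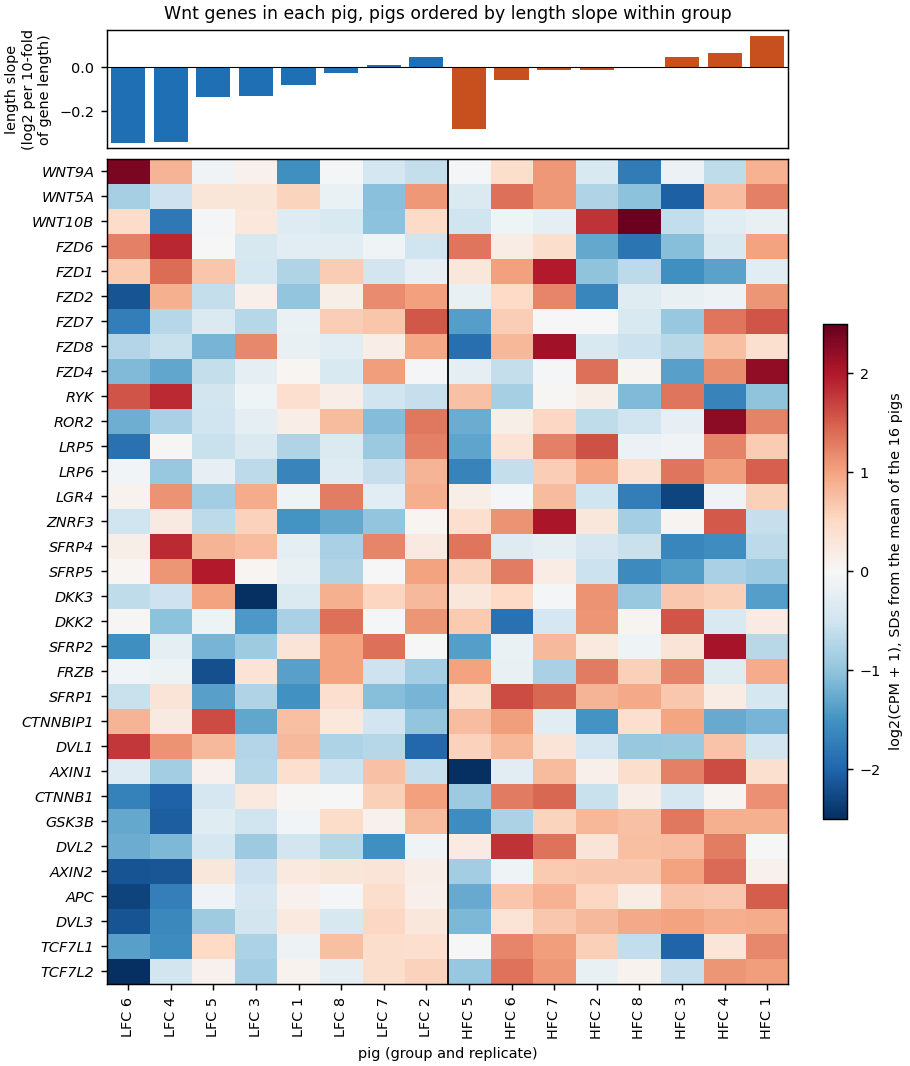
Each of the 33 Wnt genes (rows, ordered by role) in each pig (columns), as SDs of log2(CPM + 1) from the mean of the 16 pigs, with the length slope of the pig as a bar above. Pigs are ordered by slope within their group. APC, DVL3 and AXIN2 are low in the pigs of lowest slope (LFC 6, LFC 4 and HFC 5), DVL2 and most values of SFRP1 are higher on the HFC side whatever the slope, and SFRP4 is high in LFC 4 and HFC 5.

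Across the pigs, the nominally different members differed in their relation to the length slope. Correlations were computed for 15 pairs of measures in all (9 planned with earlier results known and 6 added after the values were seen), and p-values were adjusted over these 15. APC correlated with the slope at r = 0.940 (Pearson) and rho = 0.821 (Spearman) (permutation p = 1e-05, the smallest that 100000 resamples can give, and 2.20e-04, adjusted over the pairs 7.50e-05 and 0.00165). For DVL3 r was 0.928 and rho 0.891 (permutation p = 1e-05 and 2.00e-05, adjusted 7.50e-05 and 3.00e-04). Within the groups r was 0.939 and 0.924 for APC and 0.934 and 0.934 for DVL3, with p between 0.00166 and 0.00836 by exact permutation (n = 8). With the 2 pigs most distant from the median slope removed they were 0.876 and 0.850, and over the 13 pigs other than the 3 of lowest slope 0.766 and 0.772. LRP6 followed with r = 0.682 and rho = 0.765 (permutation p = 0.00328 and 7.80e-04, adjusted 0.0123 and 0.00390), but its r was 0.254 in the LFC and 0.939 in the HFC pigs. SFRP4 had r = -0.67 and rho = -0.65 (permutation p = 0.00420 and 0.00775, adjusted 0.0126 and 0.0232), with r = -0.38 in the LFC and -0.85 in the HFC pigs. SFRP1 had r = 0.0732, FRZB r = 0.114 and ZNRF3 r = 0.0271, and DVL2 r = 0.443 (permutation p for r from 0.0877 to 0.921). The spans in the genome were 9.02 kb for DVL2 and 17.2 kb for DVL3, against 185 kb for APC, 166 kb for LRP6 and 149 kb for ZNRF3.

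**Figure D4:**
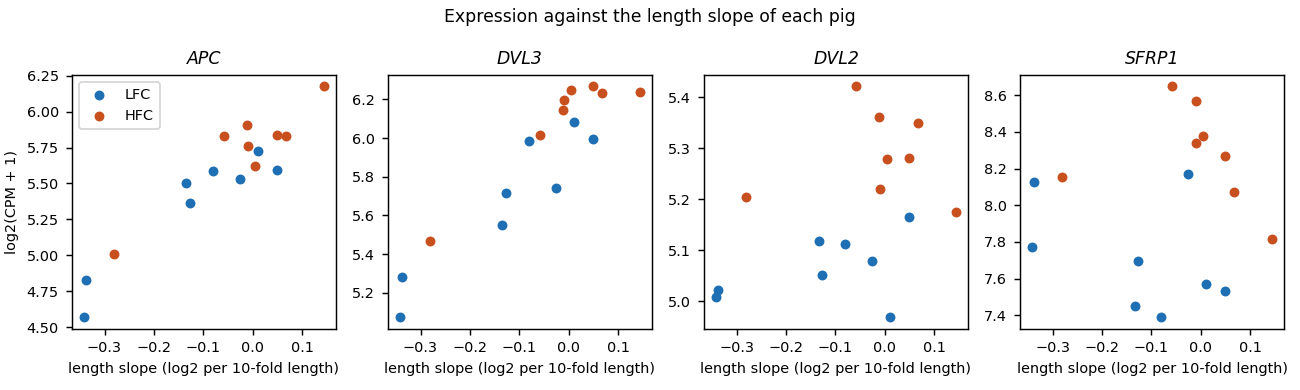
Log2(CPM + 1) (y axis) against the length slope (x axis, log2 units per 10-fold of gene length) in each LFC pig (blue) and HFC pig (orange), for APC, DVL3, DVL2 and SFRP1. APC and DVL3 climb with the slope in both groups (r = 0.940 and 0.928), while DVL2 lies apart in the groups and SFRP1 does so but for LFC 4 and LFC 8 (r = 0.443 and 0.0732).

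The fibroblast collagen gene COL1A2 was nominally higher in the HFC pigs (104 ± 30.5 against 193 ± 45.4 CPM, SD, n = 8 each). Its log2 fold change was 0.89 (edgeR unadjusted p = 0.000147, adjusted p = 0.372, DESeq2 adjusted p = 0.00953). Its correlation over all 16 pigs with a gene that differs between the groups therefore also holds that difference. SFRP4 and SFRP5 correlated negatively with COL1A2 over the 16 pigs (r = -0.62 and -0.58, rho = -0.61 and -0.59, permutation p = 0.0109 and 0.0199 for r and 0.0136 and 0.0172 for rho, adjusted over the 15 pairs 0.0272, 0.0426, 0.0339 and 0.0368). Within the groups these relations did not pass the test, since r was -0.18 and -0.22 in the LFC pigs and -0.68 and -0.71 in the HFC pigs, and no exact permutation p was below 0.0503 (n = 8). Removing the 2 pigs most distant from the median of COL1A2 left r at -0.61 and -0.64. For SFRP1 and FRZB r with COL1A2 was 0.412 and 0.463 (rho 0.512 and 0.412, permutation p from 0.0447 to 0.115, adjusted from 0.0838 to 0.173). Within the groups SFRP1 had r of -0.30 in the LFC and -0.36 in the HFC pigs, negative like SFRP4 and SFRP5. FRZB had r of 0.02 in the LFC and 0.39 in the HFC pigs. The 6 fibroblast markers summed to 243 to 483 CPM in the LFC and 297 to 869 CPM in the HFC pigs. COL1A2 alone of them was nominally different (16.7%, against 11.4% of all genes tested). DCN and LUM had log2 fold changes of -0.11 each, while COL3A1, PDGFRA and COL1A1 had 0.17, 0.28 and 0.36. The part of these markers in the antagonists was not tested. APC and CTNNB1 correlated with r = 0.812 and rho = 0.659 (permutation p = 1.60e-04 and 0.00709, adjusted 8.00e-04 and 0.0232, with r = 0.598 without the 2 farthest pigs and 0.438 over the 13 pigs other than the 3 of lowest slope), with r = 0.898 in the LFC and 0.676 in the HFC pigs. AXIN2 showed no such relation to RNF43 or ZNRF3, further target genes of beta-catenin (r = 0.404 and 0.111, rho = 0.324 and 0.00, permutation p from 0.124 to 1.0, adjusted from 0.169 to 1.0).

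Of 97 other genes of the pathway in a list drawn from general knowledge, 85 were tested, and 18 of these were nominally different (21.2%, against 11.4% of all genes), 17 of them higher in the HFC pigs. Their median log2 fold change was 0.07. With the length slope in the model 9 of the 85 were nominally different (10.6%, against 4.77% of all genes), 7 in the direction of the HFC pigs, and the median was 0.0024. Part of this list was also chosen by the study on the same samples, so the count is not independent evidence. Nuclear cofactors gave 8 of 21, all higher in the HFC pigs, and 4 of 21 with the length slope in the model. Without the slope TLE4, a corepressor that binds TCF factors, had a log2 fold change of 0.63 (56.7 ± 14.8 against 87.6 ± 22.9 CPM, SD, n = 8 each), CHD7 and CREBBP had 0.55 and 0.53, EP300 0.52, BCL9L 0.48, CHD8 0.36, BCL9 0.32 and CTBP2 0.24. Planar polarity and other non-canonical genes gave 4 of 18, CELSR2 (0.66), CELSR3 (0.40), PRICKLE2 (0.39) and NFATC3 (0.36), and the cytoplasmic genes 3 of 23, MACF1 (0.66), USP34 (0.36) and CXXC5 (0.28). With the length slope in the model these gave 1 of 18 (5.56%) and 1 of 23 (4.35%), against 4.77% of all genes. Among 10 genes of ligand secretion and the extracellular space none reached this threshold, and their smallest adjusted p in edgeR was 0.433. In the model with the slope 1 of these 10 did. Known target genes of beta-catenin gave 3 of 13 (2 of 13 with the slope) and did not share a direction. JUN (0.37) and CCND1 (0.27) were higher in the HFC pigs and ID2 (-0.29) was higher in the LFC pigs. None of the 85 was called at the adjusted threshold by edgeR (smallest adjusted p = 0.385) or by DESeq2.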

How the data were processed

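RNA of whole pituitaries of 16 pigs was sequenced by the authors as unstranded single-read libraries. After trimming, reads were assigned to Ensembl genes of Sscrofa11.1 by RSEM with STAR (Bowtie 2 is also named), and the authors deposited unnormalized counts of reads per gene and pig (25880 genes, 18963 with a count). The second deposited table holds the authors' own comparison of the groups, and only its symbols and positions were used. The group labels read low_FCR and high_FCR but are filed under a tag named for shear force, and were read as feed conversion ratio, the trait the study describes. Members and lists were chosen with earlier results of these data known. Full values are given for each member at an unadjusted p of at most 0.05 or called by DESeq2 and, per role, for the one with the highest CPM and the one with the smallest p. LRP5, AXIN2, GSK3B, SFRP5 and other members outside this rule were named after their values were seen.

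The model was edgeR 4.0.16 (R 4.3.3): TMM factors, filterByExpr (13621 genes kept), a quasi-likelihood test on the group alone and Benjamini-Hochberg adjustment. For single members, all 12870 splits of the pigs were enumerated in a two-sided exact permutation test on log2(CPM + 1). Correlations had 100000 resamples, and those within a group were exact; the planned pair of AXIN2 with LEF1 was left out because LEF1 did not pass the filter. Alternatives were DESeq2 1.42.0, limma 3.58.1 (voom with quality weights), other scalings and filters, a replicate block, the length slope as a covariate, and each pig left out. Leaving out the 3 pigs of lowest length slope was added after seeing the data. Python 3.11.15 with scipy 1.17.1 did the rest. The edgeR fit with and without the replicate block, DESeq2 and voom were tested on simulated counts with known changes. The other alternatives, the length slope model among them, were not. The spread of replicates is that between pigs: within-group pairs of libraries differed by a chi-square per degree of freedom of 11.4 to 85.9, so none were copies.

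Symbols came from the deposited table and a table of Ensembl names. The spans of 15 of the 33 members overlapped another RefSeq gene, and how many unstranded reads this concerns was not tested. The markers POMC, PITX1, SOX2, S100B, MOG, MAG, CDH26, CNN1, CLDN5, IBSP and SLC6A13 were not among the tested genes by symbol. The lists not described in the results gave 0 genes at an unadjusted p of at most 0.05: stem and folliculostellate (2 tested), smooth muscle and pericyte (5), immune (6), meninges and bone (3) and the glial markers (3). One listed marker is not reported here. No sequences were used here.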

Additional observations from a re-analysis of the deposited data

Results flagged for a closer look

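In 66 combinations of a member and a group, 3 had a pig whose gap to the next was large for the range of its group (Dixon's test, 95% level), where chance gives about 1 in 20. DVL3 was at 43.2 CPM in HFC replicate 5, and the next HFC pig was at 63.7 CPM. SFRP4 was at 53.7 CPM in HFC replicate 5, and the next was at 23.2 CPM. SFRP2 was at 138 CPM in HFC replicate 4, and the next was at 82.9 CPM.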

How the results depend on the processing

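DESeq2 called 30 genes and 1 member where edgeR called 0 of either. With the length slope in the model, 252 genes differed nominally with a fold change of 1.3 or more, against 791, and members fell to 5 at that p and 1 with the fold change. Without single pigs there were 561 (LFC replicate 6) to 1754 (HFC replicate 5) such genes, 4 to 11 members at that p, 1 to 6 with the fold change, and 0 calls in each. Replicate numbers are shared by unrelated pigs, and same-numbered pigs deviated together by r from -0.34 to 0.37, over 0.1 in 3 of 8 pairs. A replicate block gave 806 genes, 8 members at that p (LRP5 and SFRP5 in place of LRP6 and FRZB) and 5 with the fold change, and 0 calls. In the 10 alternatives other than leaving out 1 pig, the unadjusted p of a member passed to the other side of 0.05 in 16 cases (8 lost, 8 gained), and without single pigs in 36 (26 lost, 10 gained). Of the 330 and 528 log2 fold changes of members in these fits, 18 and 19 turned direction. The other genes of the pathway at that p fell from 18 to 9 with the length slope, which was run on them after seeing the data.

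Direction turned with the length slope in the model for AXIN1 (-0.0043), CTNNB1 (-0.0019), CTNNBIP1 (0.039), DVL1 (0.084), FZD1 (0.028), FZD2 (-0.10), FZD6 (0.040), FZD7 (-0.14), FZD8 (-0.064), ROR2 (-0.050), SFRP2 (-0.13), WNT5A (-0.017) and WNT9A (0.087). It turned without the 3 pigs of lowest slope for DKK3 (-0.016), DVL1 (0.051), FZD2 (-0.0082) and WNT9A (0.13), and with voom for WNT9A (0.065). Without single pigs it ran from -0.10 to 0.0063 for CTNNBIP1, -0.017 to 0.33 for DKK2, -0.025 to 0.11 for DKK3, -0.066 to 0.038 for DVL1, -0.061 to 0.13 for FZD2, -0.0066 to 0.15 for FZD7, -0.048 to 0.21 for FZD8, -0.058 to 0.32 for SFRP2, -0.0029 to 0.18 for WNT5A and -0.11 to 0.081 for WNT9A. The cause was not tested. TCF7L1, FZD2, TCF7L2, WNT10B and SFRP5 had median counts of at most 42.5 reads, the fewest of the members.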

Other observations

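Of the same families, 32 more genes of the count table were named by their Ensembl identifiers and carry no such symbol in the deposited comparison. Enough counts for the test were found for 14 of these, and 0 were nominally different in edgeR (unadjusted p up to 0.05), with log2 fold changes from -0.41 (DKK1) to 0.72 (WNT8B). FZD5 had 48.8 ± 8.38 CPM in the LFC pigs and 58.6 ± 35.0 CPM in the HFC pigs (SD, n = 8 each), and GSK3A, the second GSK3 kinase, 50.7 ± 7.01 and 51.9 ± 5.53 CPM (SD, n = 8 each), so that neither differed beyond the spread between pigs. FZD3 had a log2 fold change of -0.20, RNF43 of 0.12 and WNT5B of -0.24. The other 18 had at most 37 reads in any pig. Among them, the R-spondin genes RSPO1, RSPO2, RSPO3 and RSPO4 had at most 3, 6, 11 and 0 reads, the antagonist WIF1 at most 20 and the TCF partner LEF1 at most 37.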
